A study of Mus musculus with 2 samples.

Results

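DNase-seq maps open chromatin by cutting nuclei with DNase I and sequencing the cut ends. The regions described here are peaks that passed the stricter significance limit in biological replicate 2 and shared no base with any peak of the longer list of biological replicate 1. They were chosen by the authors' peak calls in both libraries and number 7347 of the 69638 strict peaks of replicate 2, or 10.6% of them. The strict list of replicate 1 is not wholly nested in its longer one, and 128 of the 7347 touch a peak of that strict list. In the opposite direction, 2767 of the 62013 strict peaks of replicate 1, or 4.46%, shared no base with the longer list of replicate 2. The longer list held 117359 peaks in replicate 2 and 101172 in replicate 1, so the 2 shares were not taken against lists of equal size. Whole testis was taken at 14 days from males of the hybrid B6CASTF1/J, whose parents are C57BL/6 and castaneus-derived mice, and both libraries belong to 1 group with no treatment named. Replicate 1 is labelled as tissue of 3 males, the number behind replicate 2 is not stated, and the donor label is the same for both. With 1 library on each side there was no test, and every value below describes these libraries. Library and animals cannot be told apart, and the depth in reads is unknown.

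Open chromatin marks promoters, enhancers and insulators, where nucleosomes give way to bound proteins. A footprint is a short stretch inside an open region that is cut less than its flanks, often because a protein covers it. The testis at this age holds Sertoli cells, which nurse the germ cells, spermatogonia, the spermatocytes of the first wave of meiosis, steroid-producing Leydig cells, myoid cells around the tubules, and vessels. Round and elongating spermatids appear later. The insulator protein CTCF holds the ends of chromatin loops and leaves one of the clearest footprints known.

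The sequences below show the kinds of region the list holds. The peaks in the Cltc and Gpbp1 promoters lie beside strong replicate 1 peaks, the peak in Rara is a strong one that lies away from any, the peak nearest to Aqp9 is the strongest of the largest cluster of weak peaks, and those at Gata4 and Nanos3 stand for somatic and germ cell genes. Letters are the RefSeq GRCm38.p6 reference (the build of mm10), plus strand, and capitals mark the bases inside replicate 2 footprints.
Cltc promoter, chr11:86757741-86757960: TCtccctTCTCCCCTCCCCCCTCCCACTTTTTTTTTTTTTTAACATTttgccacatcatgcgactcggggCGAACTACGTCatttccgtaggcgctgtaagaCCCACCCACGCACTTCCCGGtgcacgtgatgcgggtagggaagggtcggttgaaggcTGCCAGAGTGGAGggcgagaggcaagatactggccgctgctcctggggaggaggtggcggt
Gpbp1 promoter, chr13:111490501-111490720: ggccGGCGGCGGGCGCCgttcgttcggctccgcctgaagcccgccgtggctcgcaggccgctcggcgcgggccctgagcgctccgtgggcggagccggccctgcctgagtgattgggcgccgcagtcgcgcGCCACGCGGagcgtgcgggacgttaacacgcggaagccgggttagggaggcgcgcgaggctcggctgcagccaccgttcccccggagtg
Rara intron, chr11:98955941-98956140: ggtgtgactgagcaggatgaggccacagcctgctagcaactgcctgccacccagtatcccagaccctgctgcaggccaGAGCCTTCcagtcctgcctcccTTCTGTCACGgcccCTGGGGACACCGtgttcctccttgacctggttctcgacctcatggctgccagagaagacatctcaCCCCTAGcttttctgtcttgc
dense run nearest to Aqp9, chr9:71076201-71076480: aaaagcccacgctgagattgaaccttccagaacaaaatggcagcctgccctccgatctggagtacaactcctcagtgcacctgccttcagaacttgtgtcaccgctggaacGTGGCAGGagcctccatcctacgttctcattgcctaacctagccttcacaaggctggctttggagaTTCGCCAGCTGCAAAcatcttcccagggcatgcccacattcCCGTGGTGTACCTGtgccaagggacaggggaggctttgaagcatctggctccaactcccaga
upstream of Gata4, chr14:63274669-63274843: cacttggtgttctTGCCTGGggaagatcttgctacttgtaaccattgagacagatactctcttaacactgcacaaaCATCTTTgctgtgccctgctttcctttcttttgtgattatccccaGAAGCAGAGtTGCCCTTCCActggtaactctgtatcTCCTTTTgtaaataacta
Nanos3 promoter, chr8:84176678-84176791: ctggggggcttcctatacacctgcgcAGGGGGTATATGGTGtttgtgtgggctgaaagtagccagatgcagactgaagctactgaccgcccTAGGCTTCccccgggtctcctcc
The footprinted letters differ from region to region, and none of the 6 sequences holds a CTCF consensus. The Cltc sequence holds the E-box letters CACGTG and the Rara sequence a steroid receptor consensus, the former outside the capitals and the latter partly inside them.

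Most of these peaks were weak. The value of a peak, a signal in column 7 of the deposited lists with no stated scaling, ran from 0.0340 to 10.8 with a median of 0.411 and a middle range from 0.238 to 0.593. The 62291 strict replicate 2 peaks that shared a base with replicate 1 had a median of 0.853. Every value was a whole multiple of 1 smallest step, 0.00377 in replicate 2 and 0.00538 in replicate 1, so the median of 0.411 corresponds to 109 steps and that of the shared peaks to 226. The peaks were also narrower, with a median width of 130 bp (21 to 1089 bp) beside 200 bp. The rule reads the same peak calls as these values, so they describe how the peaks were chosen and support nothing further.

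The share of strict replicate 2 peaks without a replicate 1 counterpart depended steeply on value. Split into quintiles by value, it was 31.4% in the lowest, then 10.9%, 5.83% and 3.03%, and 1.24% in the highest. Of 1751 strict replicate 2 peaks with a value below 0.2, 1598 (91.3%) had no replicate 1 peak. The strict list of replicate 1 held 257 peaks below 0.2, of which 90 (35.0%) had no replicate 2 peak. Because the steps differ, 0.2 is not the same number of steps in both libraries. Of the 1598, 724 lay in the dense clusters described further on.

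**Figure D1:**
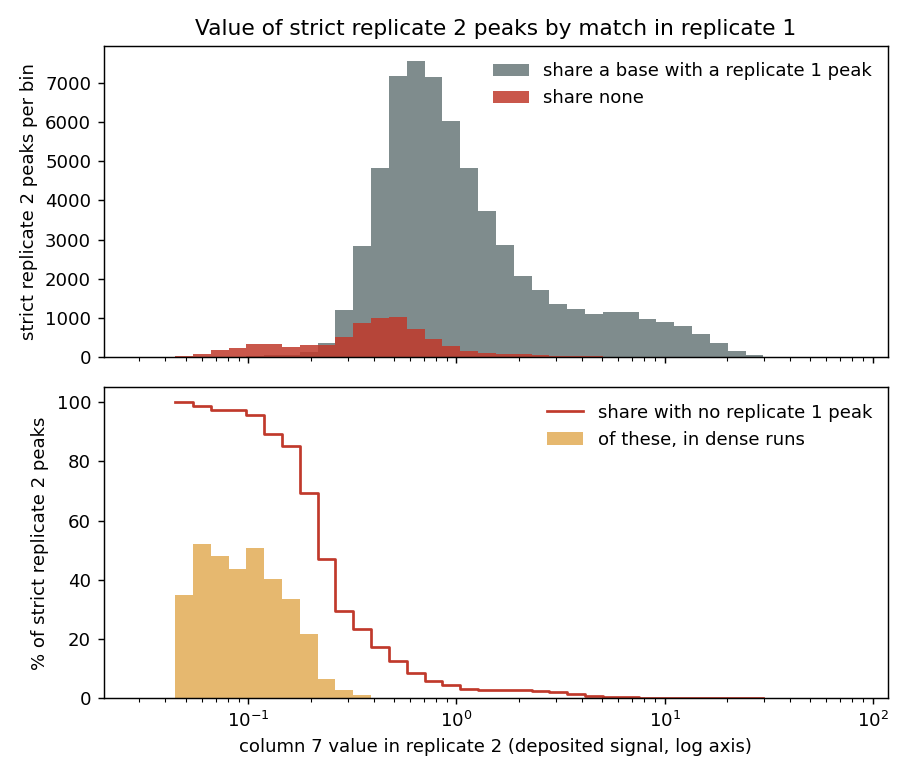
Upper panel: strict replicate 2 peaks per bin of column 7 value (log axis), shared with replicate 1 in grey and without a replicate 1 peak in red. Lower panel: percent of the strict peaks in each bin of at least 20 peaks that had no replicate 1 peak (line), and percent that had none and lay in a dense run (bars). Below a value of 0.2 nearly all strict peaks lack a counterpart (1598 of 1751), and near the shared median of 0.853 few do.

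By distance to the nearest replicate 1 peak, the list fell into contrasting groups. Apart from the 935 peaks in dense runs, 1687 lay within 200 bp of a replicate 1 peak, 1501 at 201 to 1000 bp, and 3224 beyond 1000 bp. The nearest ones were the strongest and sat at promoters. Their median value was 0.615, beside 0.502 at 201 to 1000 bp and 0.374 beyond 1000 bp. Promoters, meaning a midpoint within 1000 bp of a protein-coding start in GENCODE M21, held 65.4%, 56.2% and 6.85% of the 3 groups. The median observed over expected CpG of the 150 bp around the midpoint had the same order, at 0.591, 0.408 and 0.209.

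Sharing no peak did not mean that replicate 1 was closed there. The false discovery rate (FDR) track of replicate 1, deposited where it was below 0.05, covered at least 1 base of 2544 of the 7347 peaks (34.6%), and went below 0.001 under 1588 (21.6%). Within 200 bp of a replicate 1 peak this share was 84.0%, at 201 to 1000 bp it was 48.0%, and beyond 1000 bp 12.3%. Directly at the edge of the rule, 96 peaks began at the base next to a replicate 1 peak and 148 lay within 10 bp of one, while 53 shared strict peaks overlapped theirs by 10 bp or less. Just inside it were peaks at Gulp1 (0.415), Lhx4 (0.729) and Sde2 (0.683), each abutting a replicate 1 peak. Just outside it were 3 peaks that overlapped a replicate 1 peak by 1 bp, nearest to Grpel2 (0.419), Adgrl2 (0.279) and Mex3b (0.389).

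**Figure D2:**
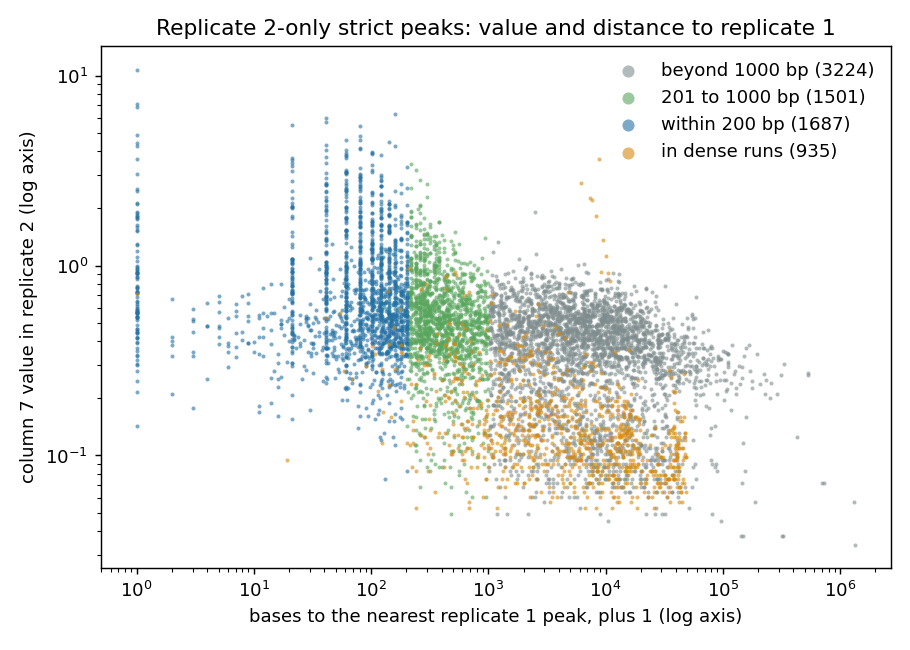
Each point is 1 of the 7347 peaks, placed by the bases to the nearest replicate 1 peak plus 1 (log axis) and by its column 7 value (log axis), and coloured by group. The strongest values lie within 200 bp, and the peaks in dense runs form a band of low values (median 0.128).

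The strongest members lay beside promoter peaks of replicate 1, most of which had a higher column 7 value. The scaling is not stated and the steps of the libraries differ, so these values do not rank peaks of 1 library against those of the other. The peak at Cltc, which encodes the clathrin heavy chain, had the highest value, 10.8, lay 286 bp upstream of a start, and abutted a replicate 1 peak of value 13.0. Replicate 1 had an FDR of 1.73e-127 under it and 5 footprints in it, as many as replicate 2. The peak at Aldh16a1 had 7.12 and abutted a replicate 1 peak of 11.9, and that at Pcnx3 had 6.83 and abutted one of 9.39. Ap1m1, a subunit of a clathrin adaptor, had 6.30 and lay 160 bp from a replicate 1 peak of 11.5. Crlf2, a cytokine receptor subunit, had 5.96 and lay 40 bp from one of 6.50. The next were Dcun1d2 (5.70), the RNA helicase gene Ddx39 (5.51), the ubiquitin-conjugating enzyme gene Ube2d2a (5.45), Mon1b (4.87), Fbxo33 (4.80, beside a replicate 1 peak of 1.13), Lrpprc (4.58) and Hnrnpf, a splicing factor gene (4.57). All 12 were promoter peaks within 160 bp of a replicate 1 peak, and under all 12 replicate 1 reached an FDR of 7.23e-39 or lower and had footprints.

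The same held for most strong members. Of 938 with a value at or above 0.789, the median of all strict replicate 2 peaks, 587 (62.6%) lay within 200 bp and 859 (91.6%) within 1000 bp of a replicate 1 peak. The replicate 1 FDR was below 0.05 under 830 of them and below 0.001 under 777. A promoter held 745, and 385 contained a replicate 1 footprint. The Gpbp1 promoter peak printed above, for example, had 2.69, lay 300 bp from a replicate 1 peak of 21.4, and had 2 replicate 2 and 3 replicate 1 footprints.

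Strong and isolated peaks were few. Among those over 1000 bp from any replicate 1 peak and outside dense runs, chosen here after their values were seen, the strongest is not reported. Of the others, an intron of Rara, the retinoic acid receptor alpha gene, had the highest value, 1.34, and 4 footprints (chr11:98955941-98956140). Replicate 1 reached an FDR of 0.0343 under that peak and had no footprint in it. Next came a site upstream of Midn (1.19), an intron of Myh14, a non-muscle myosin gene (1.16), the promoter of Fam129c (1.08), a site 19841 bp upstream of Fzd9, a Wnt receptor gene (1.02), and introns of Coro7 (1.01) and Cxxc5 (0.985). Of these 7 peaks, 5 had no replicate 1 FDR below 0.05, and it was at 0.0476 under the Fam129c peak.

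In 63 places members stood in dense runs, defined after the data were seen as 10 or more members with at most 5 kb between neighbours. They held 935 members (12.7%) in 704 kb, on all chromosomes but Y. A run spanned 4.89 to 30.5 kb with a median of 10.1 kb. Their peaks were the weakest of the list, with a median of 0.128, or 34 steps, and in 52 runs (800 members) the median was below 0.2. The longest by members lay between genes on chromosome 9 (chr9:71063481-71080090), nearest to Aqp9, which encodes a water and glycerol channel. It held 30 members of 0.0717 to 0.359 in 16.6 kb and no replicate 1 peak. A run over the 3′ end of B4galt5, a galactosyltransferase gene, and the sequence beyond it (chr2:167291781-167307320) held 28 members of 0.0868 to 0.513, 13 of them between genes, and 2 replicate 1 peaks. Runs nearest to Utp18 on chromosome 11 (26 members), Arhgap12 on chromosome 18 (23) and the homeobox gene Lbx1 on chromosome 19 (23) held no replicate 1 peak.

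Inside the runs replicate 2 signal was broad and replicate 1 signal sparse. Across the 63 runs a median of 63.2% of bases (30.4 to 99.0%) were below an FDR of 0.05 in replicate 2, with over 50% in 45 runs, and a median of 1.19% (0 to 27.8%) in replicate 1. The FDR track of replicate 1 was absent inside 29 runs, and those same 29 held no replicate 1 peak. In the Aqp9 run, 70.6% of bases passed in replicate 2 and 0% in replicate 1, and in the B4galt5 run 93.6% and 2.06%. Although weak in value, run members were well below the limit, with a median lowest FDR of 4.40e-08 beside 5.80e-05 for members beyond 1000 bp. Only 2 such runs, of 21 peaks, were found among the replicate 1 peaks without a replicate 2 counterpart. With at most 2 kb between neighbours 44 runs of 652 members were found, and with 10 kb 74 runs of 1144. Of run members 53.5% lay between genes, beside 47.8% of members beyond 1000 bp, and 27 runs touched no protein-coding gene. In 11 of the 63 runs the median value was 0.2 or higher, up to 1.59. Among these a run of 30.1 kb over Kdm6b, a histone demethylase gene, and 3 neighbouring genes had 18 members with a median of 0.727, 7 of them at promoters. The 4 widest members of the whole list lay in runs: 1089 bp upstream of Kdm6b (0.880), 1080 bp nearest to Utp18 (0.102), 1000 bp in an intron of B4galt5 (0.208) and 960 bp in an intron of Tbc1d2b (0.147). The next, of 940 bp each, lay in an intron of Mxd4 (0.245), in a run, and at the promoter of Sin3b, a corepressor gene (0.177), outside runs. What sets the runs apart was not tested.

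**Figure D3:**
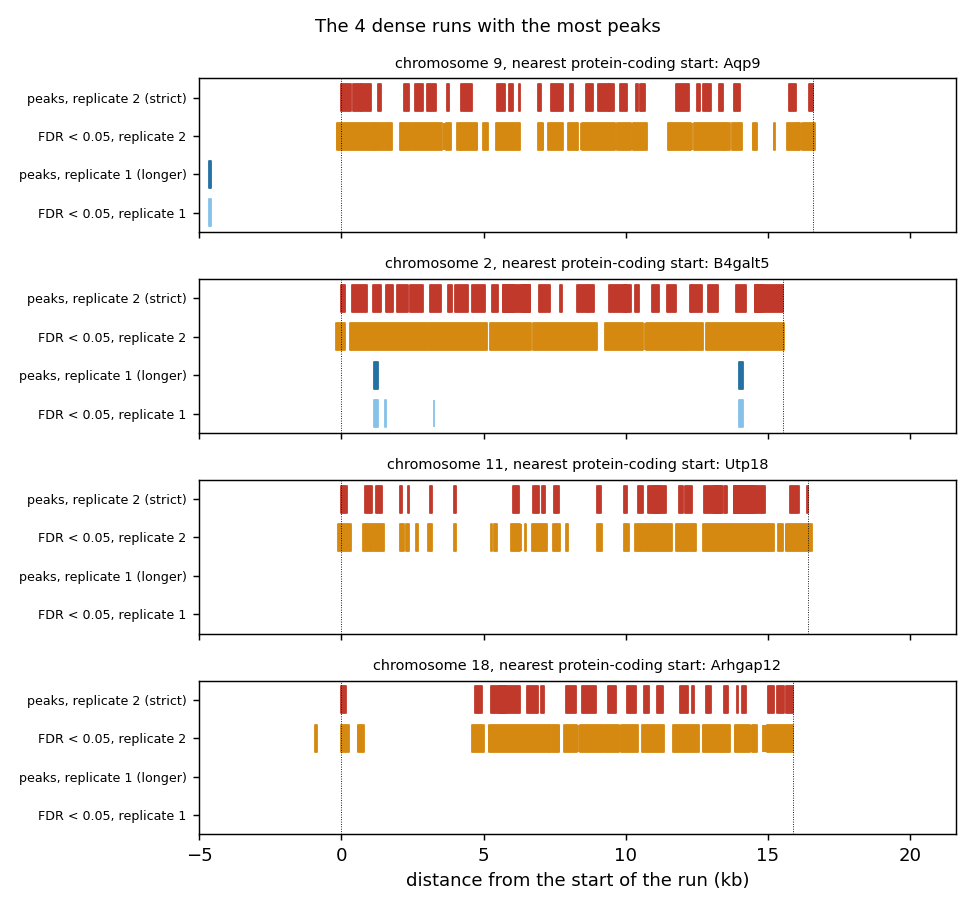
The 4 runs with the most members, each drawn from 5 kb before its start (dotted lines mark start and end). Bars show strict replicate 2 peaks, the stretches below an FDR of 0.05 in replicate 2, the longer-list peaks of replicate 1 and its stretches below 0.05. Replicate 2 signal covers 52.3 to 93.6% of each run and replicate 1 signal at most 2.06%.

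Because of the runs, the genes nearest to most members were not those with strong peaks. Aqp9 was nearest to 38 members (30 in a run), Map3k5, a stress kinase gene, to 33 (31), B4galt5 to 32 (28), Apba2 and Utp18 to 26 each, all in runs, Prnd, a prion-like gene needed for male fertility, and Trim42 to 23 each, and Fcgbp, Lbx1 and St3gal4 to 21 each. All 33 members nearest to Map3k5 lay inside a protein-coding gene, 44.1 to 72.5 kb from a start, and none had any replicate 1 base below 0.05. The 26 nearest to Utp18 lay 139 to 155 kb from it. The values of the members of these 10 genes stayed between 0.0528 and 0.521. In all, 4181 genes were nearest to at least 1 member, 2965 of them to exactly 1, and 65 to 10 or more.

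By location, promoters held a smaller share of members than of shared strict peaks. Promoters held 2265 (30.8%), exons 408 (5.55%, of which 243 in coding sequence), introns 1960 (26.7%) and the space between genes 2714 (36.9%), beside 37.1%, 3.67%, 25.0% and 34.2% of the shared peaks. Of those between protein-coding genes, 409 (15.1%) lay in another GENCODE gene. Above the lowest quintile of value the order was the opposite. In the lowest quintile 17.6% of members and 18.6% of shared peaks were at promoters, in the middle one 54.6% and 24.6%, in the next 85.3% and 35.7%, and in the highest 92.5% and 79.3%. Repeats, the soft-masked bases of the reference, made up at least 50% of 7.87% of members and 3.43% of shared peaks.

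**Figure D4:**
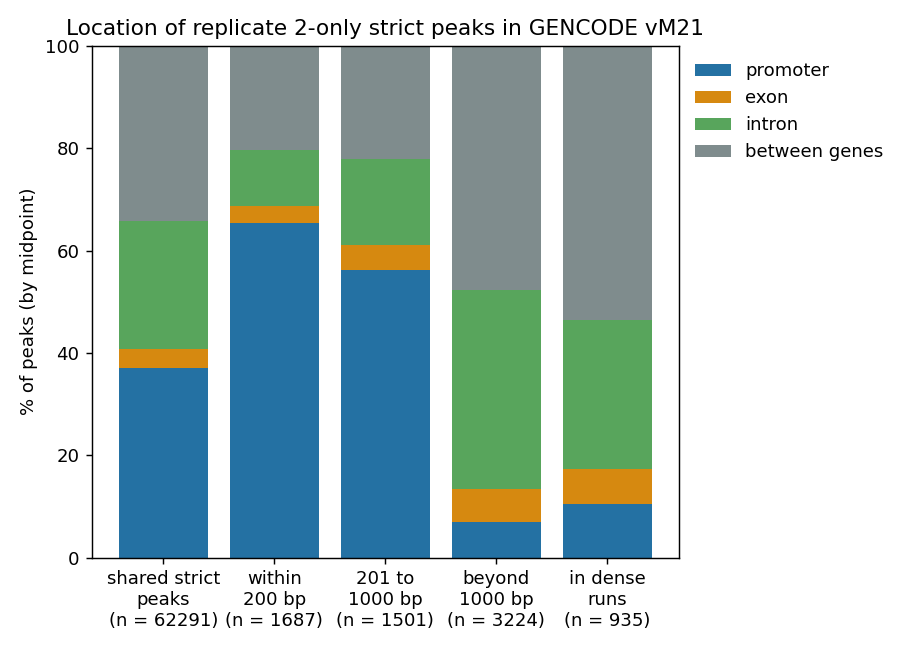
Percent of peaks by location of the midpoint for shared strict peaks and the 4 groups of members. Promoters take 65.4% of the members within 200 bp of a replicate 1 peak and 6.85% of those beyond 1000 bp.

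Members made up 8.67% (chromosome 4) to 12.2% (chromosome 10) of the strict peaks of each autosome and 11.3% on X (246 peaks). From the lowest quintile of value to the highest, X held 4.45%, 1.52%, 1.61%, 1.66% and 3.47% of members. Of shared peaks it held 8.68%, 2.46%, 2.00%, 1.67% and 2.23%. Only in the highest quintile was the share of members above that of shared peaks, and that quintile had only 173 members. On Y they were 18 of 65 peaks (27.7%) with a median value of 0.157. The 2 members farthest from any replicate 1 peak were on Y, 1331752 and 1316273 bp away, with values of 0.0340 and 0.0566, and the first consisted wholly of repeat.

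Footprints were sparser in members than in shared peaks, and few recurred. Of 349555 replicate 2 footprints, 10148 (2.90%) touched a member, with a median length of 9 bp beside 11 bp in shared peaks. At least 1 was present in 4743 members (64.6%) and in 95.0% of shared peaks, at 8.65 and 16.1 per kb. No footprint was listed in 2604 members, 1 in 1800, 2 in 1489, 3 in 836 and 4 or more in 618. Of the footprints in members 5.59% shared a base with a replicate 1 footprint, against 57.4% in shared peaks. The rule left out regions under replicate 1 peaks, so this low share describes in part how the members were chosen. A replicate 1 footprint lay in 533 members (7.25%), 477 of them within 200 bp of a replicate 1 peak and none beyond 1000 bp or in runs. Members beyond 1000 bp had a footprint most often (78.8%), and those in runs least often (48.0%). The most in 1 member were 15, in an 820 bp peak in a run at Mxd4 with a value of 0.298, followed by 12 in a 920 bp peak over an exon of Tmem53 (0.513) and 12 in the widest member, 1089 bp long and 6447 bp upstream of Kdm6b (0.880). At the promoter of Rundc3a, 11 lay in 540 bp (0.498), 6040 bp from any replicate 1 peak. Another 10 lay in a 640 bp run member (0.430) over an exon, 1317 bp from a start of Trmt112.

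The clearest feature that the rule did not use was the near absence of CTCF letters. The CTCF consensus, searched on both strands in the 150 bp around the midpoint, was found for 24 members (0.327%, exact binomial 95% interval 0.209 to 0.486%, counting error only) and for 3253 shared peaks (5.22%). The gap was there within quintiles of value too: in the lowest quintile 0.316% of members and 3.63% of shared peaks held the letters, and in the middle quintile 0.620% and 7.12%. Inside the lowest, from 0.0340 to 0.476, values were not matched, since nearly all peaks below 0.2 were members. The opposite set did not show it. Of the 2767 strict replicate 1 peaks without a replicate 2 peak, 147 (5.31%) held the consensus. Among peaks beyond 1000 bp of the other library, it was in 22 of 3224 members (0.682%) but in 129 of 1144 of the replicate 1 set (11.3%). A replicate 2 footprint lay on the match in 20 of the 24 members and in 99.1% of the shared peaks with a match. The 24 had a median value of 0.445, and 2 were at promoters. The cause of this asymmetry was not tested.

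**Figure D5:**
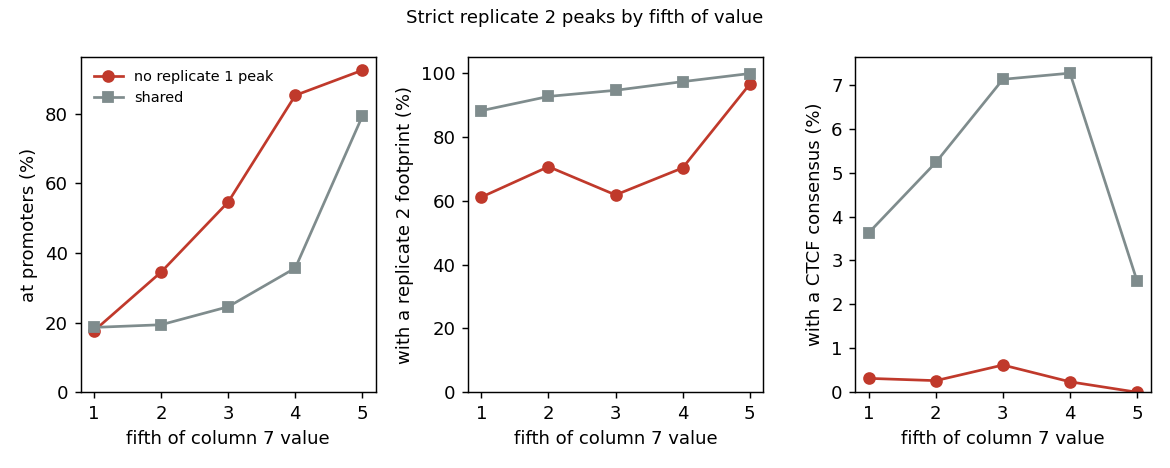
Members (red) and shared strict peaks (grey) by quintile of column 7 value, 1 being the lowest: percent at promoters, percent with a replicate 2 footprint and percent with a CTCF consensus. Promoter shares cross between quintiles 1 and 2, whereas the CTCF share of members stays at or below 0.620% in every quintile.

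Other motifs followed the groups. Of 19 searched, the promoter motifs were scarcer in members than in shared peaks: the GC box GGGCGG bound by SP and KLF factors (11.7% beside 24.1%), the ETS letters CCGGAAG (1.85% beside 4.79%), the NRF1 letters GCGCNTGCG (0.871% beside 3.92%) and the cAMP response element TGACGTCA (0.218% beside 1.01%). Within quintiles of value the order of the GC box was not constant. From the lowest quintile to the highest it was in 6.48%, 11.7%, 21.8%, 34.4% and 43.4% of members. In shared peaks it was in 10.2%, 12.3%, 16.03%, 23.2% and 53.0%. The share of members was thus the higher only in the middle quintile and the next. Several motifs of testis factors were at similar shares in members and shared peaks overall and at higher shares in the members beyond 1000 bp. In the lowest quintile of value their shares in members were below those in shared peaks, at 8.78% and 9.54% for the DMRT core, 7.33% and 8.47% for AGATAA, 7.65% and 9.29% for CAAGGNCA and 2.96% and 3.68% for AACAATG. The core ACANTGT of DMRT factors, which include the Sertoli and germ cell regulator Dmrt1, was in 8.32% of members, 7.81% of shared peaks and 13.5% of members beyond 1000 bp, beside 5.77% of the replicate 1 set beyond 1000 bp. AGATAA, bound by GATA factors such as Gata4, was in 6.71%, 5.84% and 9.12%, beside 5.68%. CAAGGNCA, the site of Nr5a1, the steroidogenic factor of Leydig and Sertoli cells, was in 7.76%, 8.15% and 9.55%, beside 6.03%. AACAATG, bound by SOX factors such as Sox9, was in 3.01%, 2.87% and 4.50%, beside 2.19%. Motifs not tied to the testis rose too, so the rise was not particular to testis factors. TGANTCA, bound by AP-1, was in 4.52%, 3.94% and 5.65%, beside 3.32%. GGAATG, bound by TEAD factors, was in 8.10%, 7.73% and 9.43%, beside 9.09%. The GC box, in contrast, was in 5.71% of members beyond 1000 bp. Promoters held 6.85% of the members beyond 1000 bp and 37.1% of shared peaks, so the motif shares of these sets compare unlike locations. No motif share is given for shared peaks away from promoters. The steroid receptor consensus was in 57 members (0.776%), near the share of shared peaks (496, or 0.796%). Of the 57, 46 lay beyond 1000 bp (1.43% of that group), and the whole replicate 1 set had 1 (0.0361%). TGTGGT, bound by RUNX factors, was in 13.7% of run members and 11.4% of members beyond 1000 bp, beside 8.18% of shared peaks. It was in 11.7% of the replicate 1 set beyond 1000 bp, so its share at that distance was not particular to members. A match touched a replicate 2 footprint in 25.0% of members with the DMRT core (40.0% of such shared peaks), 12.8% with AGATAA (22.0%) and 28.5% with the GC box (69.4%). Each motif was searched by itself, so a base may count for more than 1 of them, as where the RFX letters GTTGCCA run into an NFI consensus. A match describes letters and not a bound protein, and shares from 1 library a side have no test.

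Of the 295 genes in 18 lists of testis cell types, other tissues and housekeeping genes, few had members nearby: 102 members had a list gene nearest. Of all strict replicate 2 peaks, 182 were nearest to the 24 Sertoli genes, 201 to the 24 spermatogonial genes, 117 to 12 stromal and 74 to 16 Leydig genes. The endothelial list had 78 for 12 genes and the housekeeping list 70 for 16. Later germ cell lists had fewer per gene (65 for 29 meiotic, 42 for 17 pachytene and 40 for 23 spermatid genes), near the lists of liver (26 for 14) and skeletal muscle (31 for 15). The brain list, with 90 for 15, had more per gene than the Leydig list, so these counts do not check the labelled tissue. The Sertoli list had the most, 34 of its 182 strict replicate 2 peaks (18.7%, beside 10.6% of all), and 9 of 151 strict replicate 1 peaks in the opposite direction (5.96%, beside 4.46%). That count rested on Tjp1, a tight junction gene of the blood-testis barrier, with 17 weak members among its 34 strict peaks. These 17 had values of 0.0717 to 0.283 and lay 19.4 to 62.5 kb from a start, 12 of them in a run. Outside runs 22 Sertoli members remained, weak Tjp1 ones among them, so the 18.7% does not describe the list as a whole. Sox9, the Sertoli fate factor, had 6 members of its 38 strict peaks. They lay at -0.525, 1.78, 2.29, 12.6, 20.9 and 28.5 kb from a start, with values of 0.438, 0.510, 0.506, 0.645, 0.759 and 0.430, so the highest were downstream of the gene. Gata4 had 1, the sequence printed above, 3.06 kb upstream, with 0.781 and 5 replicate 2 footprints and no replicate 1 base below an FDR of 0.05.

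Spermatogonial genes had 16 members of 201 strict peaks (7.96%), all outside runs. Nanos3, an RNA-binding regulator of germ cell survival, had 4, with values of 0.827 at the promoter, 0.985, 0.744 and 0.713. The member of 0.985 lay 3.38 kb upstream of the nearest Nanos3 start, in an intron of a protein-coding gene. The promoter peak, printed above, lay 3289 bp from a replicate 1 peak and had no replicate 1 FDR below 0.05, whereas the other 3 had some. Gfra1, the GDNF co-receptor of stem spermatogonia, was the nearest gene of 3 members of 0.377 to 0.411, 90.1 to 411 kb from its start. All 3 lay in introns of protein-coding genes, which were not checked to be its own. The farthest, 411 kb away, had 7 footprints. Dmrt1, which is in the Sertoli list too, had 2, with 0.649 at the promoter and 0.498 in an intron, and Ccnd2, a cyclin gene, had 2, with 0.781 at the promoter.

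Genes of later germ cells had few strict peaks, and the share of them that were members lay on both sides of the 10.6% of all strict peaks. The meiotic list had 3 of 65 (4.62%), the highest at Rad21l, a meiotic cohesin gene (1.12, 280 bp from a replicate 1 peak of 3.26). The pachytene list had 4 of 42 (9.52%), at Rfx2 (0.963), Tcfl5 (0.710), Ldhc (0.593) and Hspa2 (0.442), and replicate 1 was below an FDR of 0.05 under all 4. The spermatid list had 5 of 40 (12.5%). Zpbp, an acrosomal gene, had a promoter member of 3.02 abutting a replicate 1 peak of 5.25, and Odf2, a sperm tail gene, 1 of 1.38 at 180 bp. The piRNA list had 2 of 48 (4.17%), at the promoters of Tdrd7 (2.15, 100 bp from a replicate 1 peak of 16.6) and Tdrd5 (0.517).

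Among somatic cells, the Leydig list had 5 of 74, the highest at the promoter of Scarb1, the receptor that takes up cholesterol from HDL (0.914), with Nr5a1 (0.513), Srd5a1 (0.498), Fdx1 (0.325) and Lhcgr (0.125). The stromal list had 11 of 117. Pdgfra, the receptor of interstitial progenitors, had 6, from 31.0 kb upstream to its starts, with values between 0.491 and 0.623, and Col1a1, a collagen gene, had a promoter member of 1.30, 20 bp from a replicate 1 peak. The endothelial list had 5 of 78, 4 at Flt1, a VEGF receptor gene, with 0.581 and 0.415 at its promoter more than 11 kb from any replicate 1 peak. Replicate 1 still reached an FDR of 0.0329 under the peak of 0.581, which was 58.3% repeat. Under that of 0.415 it had no FDR below 0.05. The myoid list had 2 of 58, both at Synpo2 (0.453 and 0.468). Leukocyte and erythroid lists had none of 18 and 14 strict peaks. Lists of other tissues spanned the same range: 5 of 90 for brain (5.56%), 3 of 26 for liver (11.5%), 3 of 14 for epidermis (21.4%), 1 of 31 for skeletal muscle (3.23%) and 1 of 5 for epididymis (20%). The epidermis and epididymis shares, from a few peaks each, were above that of the Sertoli list. Housekeeping genes had 5 of 70, the highest at Eef2, a translation elongation factor gene (1.28). In whole tissue, fewer cells of a type and less open DNA per cell cannot be told apart.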

How the data were processed

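DNase-seq was measured in 2 libraries of 1 group, so no comparison between conditions and no test was made. Per the file headers and labels, the authors deposited for each library a longer and a shorter, here called strict, peak list, footprints and an FDR track, all on mm10. The limits behind the lists are not labelled: set against the track, every strict replicate 2 peak holds a base with an FDR of 0.000981 or lower, so the strict limit was taken as 0.001 and the longer one as 0.05. The peak value is a signal column set by the authors, and the FDR track holds q-values deposited below 0.05. The p-value column of the deposited footprints holds 0.01 throughout, so only positions were used. The aligner, the callers and their versions were not given in the sources used here. Strict lists are not wholly nested in the longer ones: 559 members (7.61%) touch no longer-list peak of replicate 2, 340 touch one that itself shares a base with replicate 1, and 209 overlap another strict peak.

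Peaks were intersected with bedtools 2.31.1 (1 bp counts as shared, tested on simulated data) and pandas 2.3.3 in python 3.11.15. Location and nearest start use the 21911 protein-coding genes of GENCODE M21. Exon and intron refer to any such gene at the midpoint and were not matched to the nearest gene named. Motifs and CpG were read in the 150 bp of RefSeq GRCm38.p6 sequence centred on the midpoint of a peak, whatever its width. With median widths of 130 and 200 bp, this window passes the edges of most members but not of most shared peaks. Of 295 list genes, 6 symbols were not matched. Members and lists were chosen with earlier results of these data known. Named members are the 12 highest, 5 widest, 3 farthest from replicate 1, 5 with most footprints, 5 highest at promoters, the highest per list, and the 10 genes with most members. The dense runs, the isolated members and 4 of the 6 sequences (all but Cltc and Gata4) were chosen after their values were seen. The members of 1 list gene and the strongest isolated peak are not reported here. Depth per sample in reads is unknown, which limits what a missing peak means. Alternatives were other overlap rules, the other peak lists, autosomes only, other promoter windows and footprints fully inside.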

Additional observations from a re-analysis of the deposited data

How the results depend on the processing

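Of the recomputed values, 42 moved beyond their counting interval (or 1.5 times, for counts) and 29 did not. The values are, in order, the median value, the percent at promoters, with a replicate 2 footprint, with a replicate 1 footprint and under the replicate 1 FDR track. With replicate 1 peaks within 200 bp counted as shared they were 0.370, 21.03, 66.9, 1.23 and 20.7. With an overlap of at least 50% of the peak required they were 0.461, 33.4, 70.3, 22.7 and 51.5. Against the shorter replicate 1 list there were 16672 members with 0.479, 22.8, 79.2, 42.5 and 71.2, and 266 nearest to list genes. From the longer replicate 2 list there were 33601, with 0.317, 17.8, 71.9, 1.76 and 15.3. Members at or above the strict median gave 1.08, 79.4, 71.1, 41.0 and 88.5, with 2.13% on X. Without the dense runs, an alternative chosen after seeing the data, they were 0.449, 33.8, 67.0, 8.31 and 39.5. Another such alternative kept only members that touch a longer-list replicate 2 peak and moved the promoter share to 28.3%, replicate 2 footprints to 68.7% and the FDR share to 31.6%, and 1 that left out members touching the strict replicate 1 list kept 7219 and moved only the FDR share, to 33.5%. Promoter windows of 500 and 2500 bp gave 22.0% and 39.6%, the starts of all GENCODE genes 34.5%, and footprints fully inside the member 61.2%. Keeping autosomes only moved none of the 5 beyond its interval. No replicate could be left out with 1 library a side. No paired analysis was possible because the 2 libraries are the only samples of a single group. The share of members by motif and by list has no spread to set it against, and the unknown depth limits what a missing peak can mean.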
